A study of Mus musculus with 8 samples.

Results

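Peroxisomes are single-membrane organelles that shorten very-long-chain and branched fatty acids and start the synthesis of ether lipids such as plasmalogens. Their proteins fall into peroxins, which are encoded by the Pex genes and build the organelle and import its enzymes, and the enzymes and transporters that do the lipid chemistry. Brown fat burns lipid to make heat and is rich in peroxisomes. In that tissue their number is known to increase in the cold, while the mice described here lived near thermoneutrality. Many genes of peroxisomal fatty acid oxidation are known targets of the nuclear receptor PPARα in liver. The 40 genes described here were taken from the 24535 genes of the deposited FPKM table. The 17 peroxins are all genes whose symbol is Pex followed by a number and any letters, and the other 23 are a fixed list of peroxisomal lipid enzymes, transporters and membrane proteins. All 40 were in the table.

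The tissue was brown fat, in 4 samples from mice in which PGRMC2 was knocked out in adipose tissue (PATKO 53, 57, 70 and 71) and 4 from wild-type mice (WT 55, 62, 64 and 65), all of strain 129Sv/C57BL6j, 18 weeks old, kept at 30 °C on chow. The series title calls PGRMC2 an intracellular heme chaperone, and the comparison asks which transcripts differ in brown fat when it is lost from adipose tissue. The labels do not name the promoter that drives the deletion, and do not state if a number stands for 1 animal; the p-values cover the spread among these samples, which may be technical. Poly(A) RNA from 0.5 µg of total RNA was sequenced from each sample, and the deposited values are FPKM, the fragments of a gene per kilobase of its length and of the library's total fragments.

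The targeted gene Pgrmc2 ranged from 2.99 to 3.67 FPKM in PATKO and from 35.5 to 41.5 FPKM in WT. Depth is unknown, since the table gives no counts. FPKM values summed to 307371 to 315232 per PATKO library and 287525 to 291153 per WT library, without overlap, and the median log2 change of the 12235 tested genes was 0.17. Calls are therefore given with FPKM as deposited and after rescaling by the median of ratios, which divides each library by the median ratio of its genes to their mean over libraries and brought that median to 0.00. The defining markers of brown adipocytes were present (10 listed markers, 4730 to 6320 FPKM in sum in PATKO and 4460 to 6160 FPKM in WT). As deposited 1 of 10 was called higher (10.0%, against 13.2% of all tested genes) and 0 lower. After rescaling limma called 0 of the 10, with 3 above 0 and 7 below. At an unadjusted p under 0.05, 2 were higher and 1 lower as deposited, against 34.6% and 1.39% of all tested genes. After rescaling 0 were higher and 2 lower, against 9.1% and 8.21% of all genes. The 8 general adipocyte markers summed to 12300 to 13500 FPKM in PATKO and 11300 to 13000 FPKM in WT. Of these 1 was called higher as deposited, Cd36 (12.5%), and 0 after rescaling. All 20 skeletal muscle markers were higher with FPKM as deposited and 0 passed after rescaling, though all 20 stayed above 0 with an unadjusted p under 0.05. Their median log2 change was 1.76 as deposited and 1.58 after rescaling, with sums of 1600 to 6260 FPKM in PATKO, highest in PATKO 71, against 570 to 1400 FPKM in WT. Of 9 macrophage, 6 endothelial and 4 tested lymphocyte markers limma called 0 with either scaling. At an unadjusted p under 0.05, 3 macrophage markers were higher as deposited (33.3%, against 34.6% of all tested genes). Lymphocyte markers were lower for 2 as deposited (1.39% of all genes) and for 3 after rescaling (75.0%, against 8.21% of all genes). The 8 listed lymphocyte markers were low, with overlapping sums of 1.53 to 2.58 FPKM in PATKO and 1.69 to 9.51 FPKM in WT. Of 6 hepatocyte markers, Ttr, Cyp7a1 and Tat were at 0 in all libraries and the sums were at most 0.255 FPKM in PATKO and 0.146 FPKM in WT. In bulk tissue, fewer cells of a type and less RNA per cell cannot be told apart.

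Of the peroxins, about the same share was called higher in PATKO as of all tested genes. Limma on log2(FPKM + 0.5), with p-values adjusted by Benjamini-Hochberg over all 12235 tested genes, called 2 of 16 tested peroxins higher in PATKO and 0 lower. That is 12.5% higher, against 13.2% of all tested genes called higher and 0.27% called lower. Their median log2 change was 0.22, beside 0.17 for all tested genes. After rescaling 0 peroxins passed, against 0.0817% of all genes called higher and 0.0409% called lower, and their median change was 0.02, with 9 above 0 and 7 below. At an unadjusted p under 0.05, 8 peroxins lay above WT and 0 below as deposited (34.6% and 1.39% of all genes), and 0 were higher and 0 lower after rescaling (9.1% and 8.21%). The summed FPKM of the 17 peroxins was 353.4, 377.4, 355.8 and 356.0 in PATKO 53, 57, 70 and 71, and 321.2, 289.1, 325.8 and 318.3 in WT 55, 62, 64 and 65. Every PATKO sum lay above every WT sum. After rescaling the sums were 336.6 ± 21.7 in PATKO and 335.3 ± 18.5 in WT (SD, n = 4 each), and the groups overlapped.

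**Figure D1:**
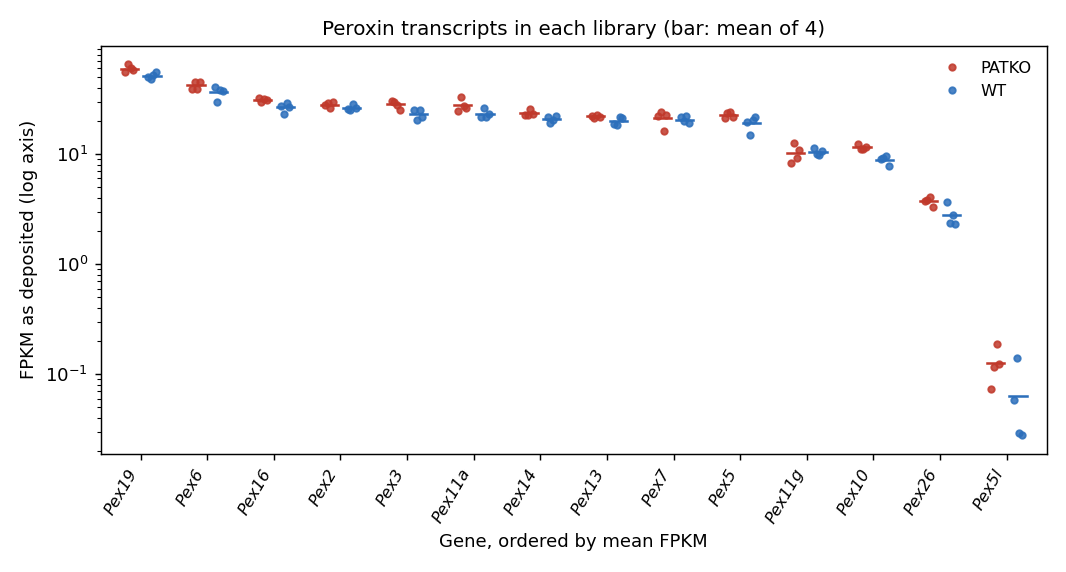
FPKM as deposited of 14 of the 17 peroxins on a log axis, genes ordered by mean level, with 1 point per library (PATKO red, WT blue) and a bar at the mean of 4. Pex19 was the most abundant and Pex5l, below 0.2 FPKM in every library, the least.

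Pex10 rose with FPKM as deposited. Pex10 (chromosome 4, 155067016 to 155072433, plus strand, GRCm38) encodes a RING ubiquitin ligase subunit that marks the import receptors for recycling. It was 12.4, 11.1, 11.1 and 11.5 FPKM in PATKO 53, 57, 70 and 71, and 8.97, 9.27, 9.52 and 7.84 FPKM in WT 55, 62, 64 and 65. All PATKO values lay above all WT values, with a log2 change of 0.36 (SE 0.08, limma adjusted p = 0.0301). After rescaling the groups overlapped and the change was 0.17 (SE 0.09, limma adjusted p = 0.397). Its ligase partner Pex2 did not pass. Pex2 was 28.1, 28.8, 26.2 and 29.6 FPKM in PATKO 53, 57, 70 and 71, and 25.6, 25.1, 28.5 and 26.2 FPKM in WT 55, 62, 64 and 65, with a change of 0.10 that turned to -0.10 after rescaling.

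Pex11a and Pex11g belong to a family that elongates peroxisomes before they divide, and neither passed. Pex11a, a PPARα-inducible gene, was 27.7 ± 3.49 FPKM in PATKO and 23.3 ± 2.12 FPKM in WT (log2 change 0.25, limma adjusted p = 0.107). Pex11g had the lowest change of the tested peroxins, at 10.2 ± 1.91 FPKM in PATKO and 10.5 ± 0.688 FPKM in WT (log2 change -0.05, and -0.24 after rescaling). Exons of Gm44775 on the opposite strand overlap 41.1% of Pex11g.

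Pex19, Pex16 and Pex3 insert membrane proteins, and none of them passed. Pex19, the cytosolic chaperone and shuttle for peroxisomal membrane proteins, was 55.6, 65.1, 59.99 and 57.8 FPKM in PATKO 53, 57, 70 and 71, and 50.3, 47.7, 52.2 and 55.3 FPKM in WT 55, 62, 64 and 65. The lowest PATKO value lay just above the highest WT value, and the change of 0.21 did not pass (limma adjusted p = 0.0698; 0.02 after rescaling). Pex16, a membrane receptor for Pex3, was 32.6, 29.9, 31.7 and 30.8 FPKM in PATKO and 27.4, 23.4, 29.1 and 26.6 FPKM in WT, again without overlap and without passing (limma adjusted p = 0.0657). Pex3, the docking site of PEX19, was 28.2 ± 2.33 FPKM in PATKO and 23.0 ± 2.49 FPKM in WT (SD, n = 4 each; limma adjusted p = 0.0608). All 3 stayed above 0 after rescaling, at 0.02, 0.04 and 0.10, and none passed.

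Import receptors and their docking and recycling partners did not pass. Pex5, the receptor for the common C-terminal peroxisomal signal, was 22.5 ± 1.34 FPKM in PATKO and 19.2 ± 2.96 FPKM in WT, and Pex7, the receptor for the rarer N-terminal signal, was 21.3 ± 3.47 FPKM in PATKO and 20.6 ± 1.44 FPKM in WT (SD, n = 4 each). Their log2 changes were 0.24 and 0.03, and 0.04 and -0.16 after rescaling. The Pex5 to Pex7 ratio was 1.09 ± 0.255 in PATKO, highest in PATKO 70 at 1.47, and 0.935 ± 0.163 in WT (exact permutation p = 0.314). The docking genes Pex13 and Pex14 had log2 changes of 0.13 and 0.18, and of -0.06 and -0.01 after rescaling. Of the recycling genes, Pex6, an AAA ATPase, was 39.2, 45.1, 39.1 and 45.2 FPKM in PATKO 53, 57, 70 and 71, and 40.5, 29.4, 37.8 and 37.5 FPKM in WT 55, 62, 64 and 65. WT 55 lay within the PATKO range. Its membrane anchor Pex26 had the largest peroxin change that did not pass, at 3.75 ± 0.326 FPKM in PATKO and 2.80 ± 0.640 FPKM in WT (log2 change 0.38, limma adjusted p = 0.0790; 0.21 after rescaling). Pex5l, a PEX5-related gene known mainly from brain, was at most 0.188 FPKM in PATKO and 0.139 FPKM in WT and was not tested.

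**Figure D2:**
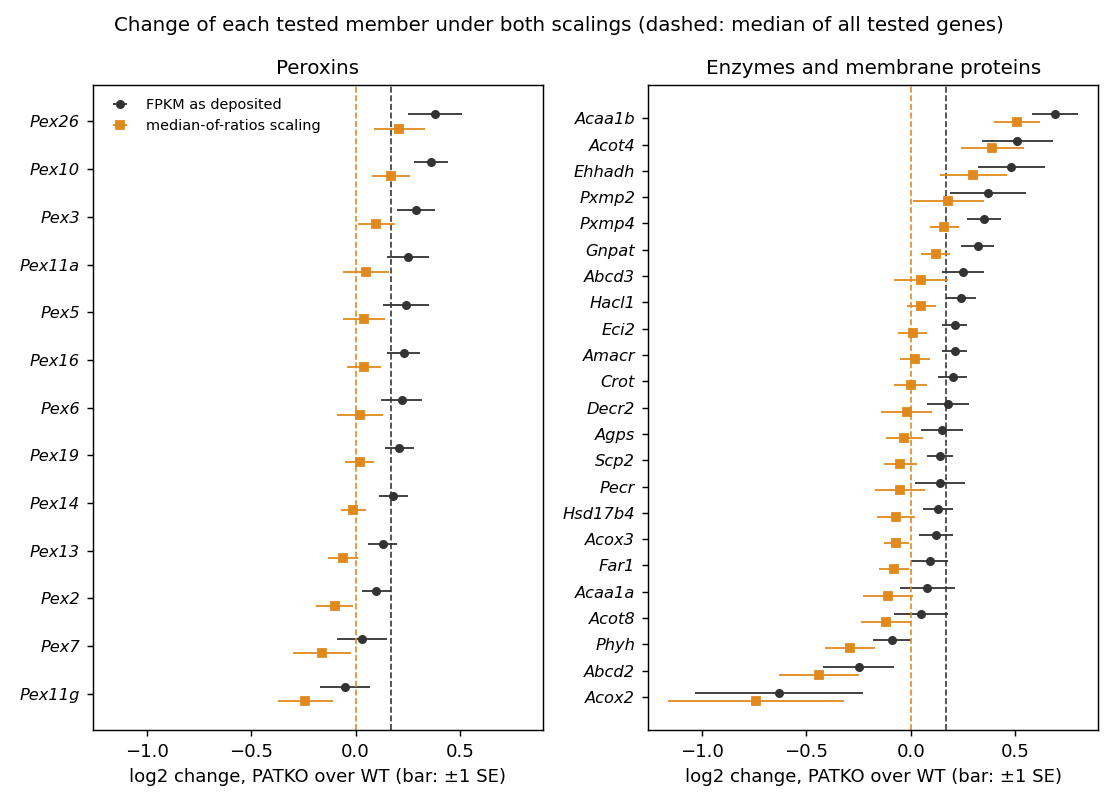
Log2 change of PATKO over WT with ±1 SE for 13 of the 16 tested peroxins and the 23 enzymes and membrane proteins, with FPKM as deposited (black) and after rescaling (orange). Dashed lines mark the median of all 12235 tested genes, 0.17 and 0.00, and Acaa1b lies farthest above them.

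Among the 23 enzymes and membrane proteins, 4 rose with FPKM as deposited, Acaa1b, Gnpat, Pxmp4 and Eci2, and 0 fell. That is 17.4% higher, against 13.2% of all tested genes. Their median log2 change was 0.18, beside 0.17 for all genes. After rescaling 0 passed and the median was -0.02, with 11 above 0 and 12 below. At an unadjusted p under 0.05, 11 lay above WT and 0 below as deposited (47.8% higher, against 34.6% of all genes). After rescaling 2 lay above (Acaa1b and Acot4) and 2 below (Abcd2 and Phyh), 8.7% each way, against 9.1% and 8.21% of all genes. The groups did not overlap, with PATKO higher, for 8 of the 23 as deposited, 34.8% against 24.0% of all genes, and for 5 of 16 peroxins, 31.2%. After rescaling this held for Acaa1b and Acot4, 8.7% of the 23 against 5.57% of all genes, and for 0 peroxins; 0 of the 40 were separated with PATKO lower, against 4.36% of all genes. Of the 40 genes in the authors' deposited table, 1 had an adjusted p-value under 0.05, Acaa1b at 0.0384, and the next lowest was 0.13, for Acox2. The share of all genes under 0.05 by the authors' test was not counted, so this count has no background beside it. Those p-values come from the same libraries.

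**Figure D3:**
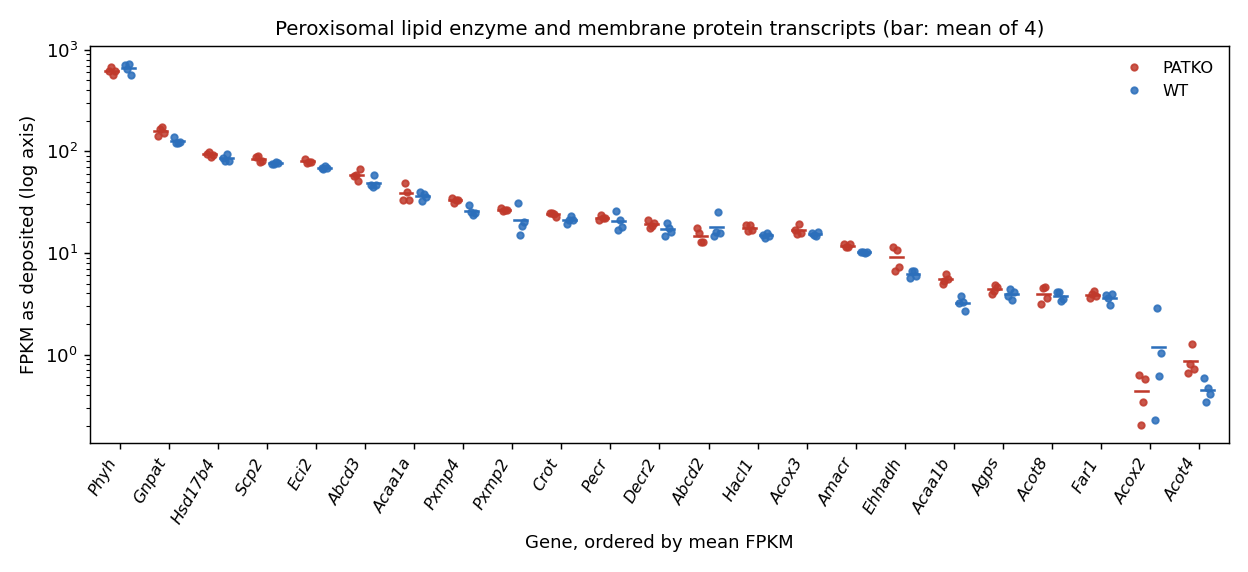
FPKM as deposited of the 23 peroxisomal lipid enzymes and membrane proteins on a log axis, ordered by mean level, with 1 point per library (PATKO red, WT blue) and a bar at the mean of 4. Phyh stands above the others, the groups do not overlap for 8 of the 23, and WT 62 is highest for Acox2.

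The thiolase Acaa1b had the largest change of the 40 genes that passed the test. Peroxisomal thiolases split off the final acetyl-CoA of each β-oxidation cycle, and mice carry a pair of such genes, of which Acaa1b is the one known in rodent liver to respond strongly to PPARα agonists. Acaa1b (chromosome 9, 119148023 to 119157093, minus strand) was 4.92, 5.26, 6.26 and 5.48 FPKM in PATKO 53, 57, 70 and 71, and 3.20, 3.75, 3.25 and 2.68 FPKM in WT 55, 62, 64 and 65. Each PATKO value exceeded each WT value, and the mean was 1.70 times as high in PATKO as in WT (limma log2 change 0.69, SE 0.11, adjusted p = 0.0181). After rescaling the values were 4.65, 5.01, 5.42 and 5.31 in PATKO and 3.30, 4.13, 3.61 and 2.78 in WT, still without overlap. The change was then 0.51 (SE 0.11), with a limma adjusted p of 0.121. Leaving out PATKO 53 gave a limma adjusted p of 0.0531 and leaving out WT 64 gave 0.0553, while the 6 other omissions kept the call.

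The sister gene Acaa1a (chromosome 9, 119339676 to 119350299, plus strand), 183 kb away, was more abundant and did not pass. It was 33.5, 49.4, 40.02 and 33.5 FPKM in PATKO 53, 57, 70 and 71, and 40.3, 32.3, 37.8 and 35.6 FPKM in WT 55, 62, 64 and 65, with PATKO 57 the highest of all. Its log2 change was 0.08 (limma adjusted p = 0.638) and -0.11 after rescaling. The ratio of Acaa1b to Acaa1a, which does not depend on library scaling, was 0.147, 0.107, 0.156 and 0.164 in PATKO and 0.0795, 0.116, 0.0861 and 0.0754 in WT. PATKO 57 lay below WT 62. With 0.5 added to each FPKM, the log2 difference of 0.60 gave a two-sided exact permutation p of 0.0571 (adjusted over 8 ratios, 0.152). The log2 difference was 0.67 with 0.1 added and 0.54 with 1 added. The open reading frames of the pair, 1275 bases each, are 96.5% identical, and 35.5% of all 50-base windows of the longest Acaa1b transcript also occur in Acaa1a. The counting rule for such reads is not given in the sources used here, so the split of reads between the pair is uncertain.

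The 250 bases before the RefSeq start of each gene (GRCm38.p6, 5′ to 3′ on the gene's strand) are shown because the paralogs share nearly all of their coding sequence and can be told apart here. Capitals mark the CCAAT box, read on both strands (CCAAT or ATTGG).
Acaa1b, chr9:119157094-119157343, minus strand: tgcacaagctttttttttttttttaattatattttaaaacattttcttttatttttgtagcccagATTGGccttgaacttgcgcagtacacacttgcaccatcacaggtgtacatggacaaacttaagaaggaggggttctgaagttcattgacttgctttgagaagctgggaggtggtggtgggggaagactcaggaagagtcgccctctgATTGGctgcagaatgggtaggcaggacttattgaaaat
Acaa1a, chr9:119341044-119341293, plus strand: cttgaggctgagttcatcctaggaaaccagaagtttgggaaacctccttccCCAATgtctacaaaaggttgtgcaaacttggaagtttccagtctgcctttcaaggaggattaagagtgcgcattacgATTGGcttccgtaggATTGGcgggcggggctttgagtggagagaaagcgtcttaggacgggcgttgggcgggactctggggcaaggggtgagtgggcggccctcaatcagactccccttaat
The Acaa1b stretch holds 2 CpG dinucleotides and is 42% G or C, and the Acaa1a stretch holds 10 and is 54% G or C. The Acaa1a stretch lies within the GENCODE span of the gene given above, so its counts hold for the RefSeq start only. RefSeq promoters were found for 30 of the 40 genes, and 16 of these hold a CCAAT box (37.5% of all 27025 genes with a promoter do). The direct repeat known to be bound by PPAR and RXR dimers, a pair of AGGTCA copies with 1 base between them, was in 0 of the 30 on either strand, and in 0.0407% of all genes. The relaxed form with AGGNCA in both places was also in 0 of the 30, and in 0.4% of all genes. Both forms are so rare that 0 of 30 cannot set these genes apart from the rest. Sequence outside the 250 bases was not searched.

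Of the other genes of the β-oxidation core none passed. Hsd17b4, the multifunctional protein for branched and very-long chains, was 94.5, 99.5, 87.5 and 91.3 FPKM in PATKO 53, 57, 70 and 71, and 85.7, 80.6, 94.6 and 80.1 FPKM in WT 55, 62, 64 and 65. Only WT 64 of the WT libraries lay within the PATKO range (limma adjusted p = 0.217; log2 change 0.13, turning to -0.07 after rescaling). Scp2, whose longer product is the thiolase for branched chains, was 88.8, 90.4, 79.5 and 80.1 FPKM in PATKO and 76.0, 75.0, 78.2 and 77.0 FPKM in WT, without overlap (limma adjusted p = 0.134; log2 change 0.14, and -0.05 after rescaling). The pseudogene Scp2-ps2 shares 41.4% of the 50-base windows of the longest Scp2 transcript. Ehhadh, the PPARα-responsive multifunctional enzyme, was split among the PATKO libraries, at 11.6, 6.59, 10.7 and 7.35 FPKM in PATKO 53, 57, 70 and 71, and 5.66, 6.60, 6.59 and 5.88 FPKM in WT 55, 62, 64 and 65. PATKO 57 lay within the WT range, and the change did not pass (log2 change 0.48, limma adjusted p = 0.0728; 0.30 after rescaling, limma adjusted p = 0.377).

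Acyl-CoA oxidases catalyse the first step of each cycle, with Acox2 and Acox3 acting on branched chains and, for Acox2, bile acid precursors. Acox3 was 16.8 ± 1.83 FPKM in PATKO and 15.4 ± 0.636 FPKM in WT (SD, n = 4 each; log2 change 0.12, limma adjusted p = 0.304; -0.07 after rescaling). Acox2 was low in all libraries, at 0.635, 0.201, 0.342 and 0.572 FPKM in PATKO 53, 57, 70 and 71, and 0.225, 2.88, 0.617 and 1.02 FPKM in WT 55, 62, 64 and 65. WT 62 stood far above all other libraries, and the change did not pass (limma log2 change -0.63, SE 0.40, adjusted p = 0.272; -0.74 after rescaling).

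The ABC transporters carry fatty acyl-CoA into the organelle, and neither of the pair passed. Abcd2, which is known from adipose tissue and prefers unsaturated very-long chains, was 17.8, 15.9, 12.7 and 12.8 FPKM in PATKO 53, 57, 70 and 71, and 14.8, 16.1, 25.3 and 15.6 FPKM in WT 55, 62, 64 and 65. The groups overlapped, and WT 64 stood above the rest (log2 change -0.25, limma adjusted p = 0.306; -0.44 after rescaling, limma adjusted p = 0.283). Abcd3, the abundant transporter for branched and dicarboxylic acyl-CoA, was 56.7, 58.5, 51.3 and 66.8 FPKM in PATKO and 47.2, 44.9, 58.3 and 46.4 FPKM in WT (log2 change 0.25, limma adjusted p = 0.119; 0.05 after rescaling). The ratio of Abcd2 to Abcd3 was 0.314, 0.271, 0.247 and 0.192 in PATKO and 0.314, 0.359, 0.433 and 0.335 in WT. The groups met at PATKO 53 and WT 55 without crossing, and the log2 difference of -0.50 had a two-sided exact permutation p of 0.0286, the smallest that 70 assignments allow (adjusted over 8 ratios, 0.114). The p was 0.0571 when PATKO 71 or any of the 4 WT libraries was left out, with log2 differences of -0.37 to -0.60 over the 8 omissions.

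**Figure D4:**
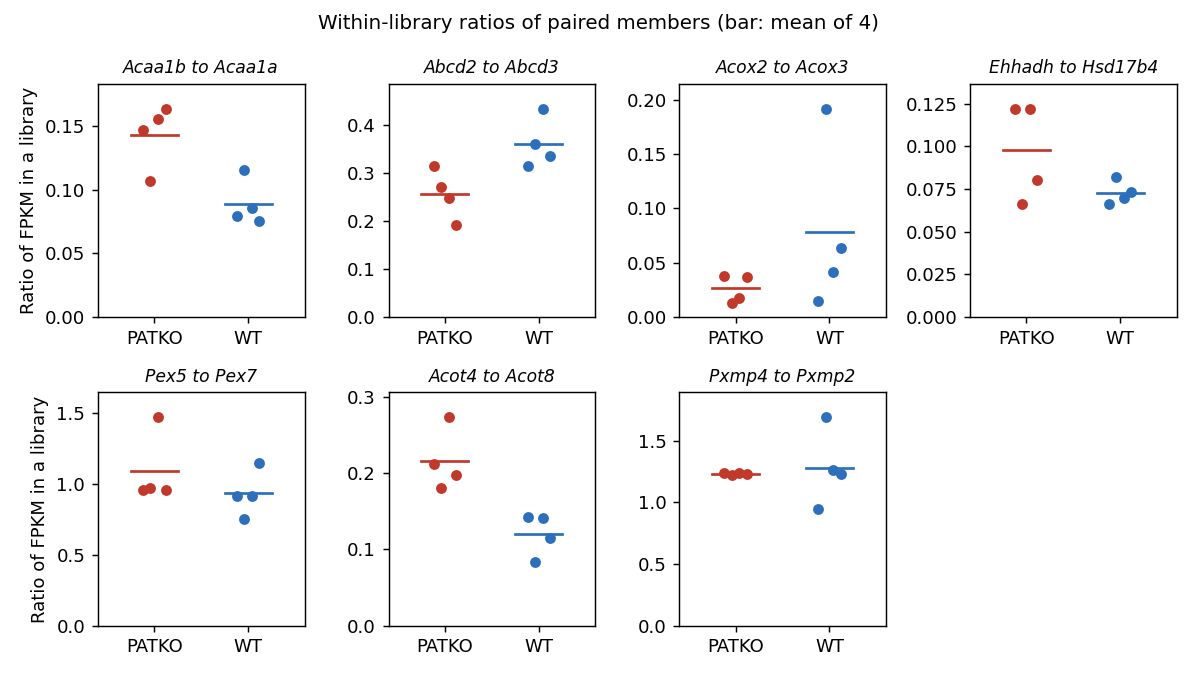
Ratio of FPKM of 2 paired members within each library for 7 of the 8 pairs, with PATKO (red) left of WT (blue), 1 point per library and a bar at the mean of 4; each vertical axis starts at 0. The groups separate for Abcd2 to Abcd3 (lower in PATKO) and Acot4 to Acot8 (higher in PATKO), and overlap for the other 5.

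None of the genes that release the shortened products passed. Acot4, a thioesterase for dicarboxylic acyl-CoA such as succinyl-CoA, was 0.665, 0.811, 1.27 and 0.713 FPKM in PATKO 53, 57, 70 and 71, and 0.590, 0.342, 0.470 and 0.406 FPKM in WT 55, 62, 64 and 65. The groups did not overlap, though PATKO 53 and WT 55 were close, and the change did not pass (log2 change 0.51, SE 0.17, limma adjusted p = 0.0686; 0.39 after rescaling, limma adjusted p = 0.238). Acot6 and other genes share 4.87% of its 50-base windows. Acot8, a broad-range thioesterase, was 3.13, 4.51, 4.64 and 3.59 FPKM in PATKO and 4.15, 4.10, 3.34 and 3.53 FPKM in WT (log2 change 0.05, and -0.12 after rescaling). The Acot4 to Acot8 ratio was 0.212, 0.180, 0.273 and 0.198 in PATKO and 0.142, 0.0833, 0.141 and 0.115 in WT, without overlap (two-sided exact permutation p = 0.0286; adjusted over 8 ratios, 0.114). It was 0.0571 with a pseudocount of 1 and when PATKO 53, PATKO 70, WT 55, WT 62 or WT 65 was left out. The log2 difference was 0.45 with a pseudocount of 0.5, 0.73 with 0.1 and 0.30 with 1. Crot, which passes medium chains on as carnitine esters, was 24.2 ± 1.0 FPKM in PATKO and 21.1 ± 1.47 FPKM in WT (SD, n = 4 each; log2 change 0.20, limma adjusted p = 0.0799; 0.00 after rescaling).

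α-Oxidation removes 1 carbon from methyl-branched fatty acids such as phytanic acid, and its hydroxylase gene Phyh was by far the most abundant of the 40. Phyh was 621.5, 670.4, 559.0 and 624.6 FPKM in PATKO 53, 57, 70 and 71, and 709.8, 641.0, 725.1 and 561.7 FPKM in WT 55, 62, 64 and 65. The groups overlapped (log2 change -0.09, limma adjusted p = 0.517; -0.29 after rescaling, limma adjusted p = 0.282). Phyh made up 46.2%, 47.2%, 43.4% and 46.8% of the summed FPKM of the 23 enzymes in PATKO 53, 57, 70 and 71, and 52.0%, 51.7%, 52.6% and 47.9% in WT 55, 62, 64 and 65, a share chosen after the values were seen. The lyase Hacl1 was 17.7 ± 1.30 FPKM in PATKO and 14.9 ± 0.669 FPKM in WT, and the racemase Amacr was 11.8 ± 0.499 FPKM in PATKO and 10.2 ± 0.132 FPKM in WT (SD, n = 4 each). The groups overlapped for neither, and both missed the threshold narrowly (limma adjusted p = 0.0506 and 0.0505). After rescaling their changes were 0.05 and 0.02. Gm49387, annotated on the same strand, shares 31.1% of the exon bases of Hacl1.

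Of the enzymes that handle double bonds, Eci2 rose with FPKM as deposited. Eci2 (chromosome 13, 34977748 to 35027096, minus strand), an enoyl-CoA isomerase, was 85.003, 77.4, 78.7 and 79.3 FPKM in PATKO 53, 57, 70 and 71, and 68.8, 67.2, 71.1 and 69.3 FPKM in WT 55, 62, 64 and 65. The groups were well apart and the change was small (log2 change 0.21, SE 0.06, limma adjusted p = 0.0408), and it was 0.01 after rescaling (limma adjusted p = 0.950). The paralog Eci3 shares 7.19% of its 50-base windows. The dienoyl-CoA reductase Decr2 was 19.3 ± 1.5 FPKM in PATKO and 17.1 ± 2.14 FPKM in WT, and the enoyl-CoA reductase Pecr was 22.3 ± 1.11 FPKM in PATKO and 20.4 ± 4.11 FPKM in WT (SD, n = 4 each); neither passed. Their log2 changes were 0.18 and 0.14, and -0.02 and -0.05 after rescaling.

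In ether lipid synthesis, Gnpat, which acylates dihydroxyacetone phosphate as the first step, rose with FPKM as deposited. Gnpat (chromosome 8, 124863033 to 124890057, plus strand) was 143.3, 166.3, 172.0 and 150.4 FPKM in PATKO 53, 57, 70 and 71, and 138.1, 120.3, 122.3 and 124.8 FPKM in WT 55, 62, 64 and 65, without overlap (log2 change 0.32, SE 0.08, limma adjusted p = 0.0349). After rescaling the change was 0.12 (limma adjusted p = 0.398). The next enzyme Agps, which introduces the ether bond, was 4.42 ± 0.417 FPKM in PATKO and 3.95 ± 0.418 FPKM in WT. Far1, which supplies the fatty alcohol and is the rate-limiting step, was 3.89 ± 0.254 FPKM in PATKO and 3.62 ± 0.373 FPKM in WT (SD, n = 4 each), and neither passed. The log2 changes of Agps and Far1 were 0.15 and 0.09, and -0.03 and -0.08 after rescaling. On this per-length scale, the level of Gnpat was far above those of Agps and Far1 in both groups. Of 5 tested genes of later ether lipid steps 1 rose with FPKM as deposited (20.0%, against 13.2% of all tested genes called higher). It was the choline and ethanolamine phosphotransferase Cept1 (11.2 ± 0.578 FPKM in PATKO, 8.197 ± 0.106 FPKM in WT; SD, n = 4 each; limma adjusted p = 0.0181), and it did not pass after rescaling (limma adjusted p = 0.141).

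Pxmp4 and Pxmp2 encode peroxisomal membrane proteins, and Pxmp2 is known to form a pore for small metabolites. Pxmp4 (chromosome 2, 154585758 to 154603708, minus strand) was 34.5, 31.4, 32.99 and 32.9 FPKM in PATKO 53, 57, 70 and 71, and 29.5, 25.6, 23.5 and 24.6 FPKM in WT 55, 62, 64 and 65. The groups did not overlap as deposited (log2 change 0.35, SE 0.08, limma adjusted p = 0.0302) and overlapped when rescaled (log2 change 0.16, limma adjusted p = 0.323). Pxmp2 was even across PATKO, at 27.7, 25.8, 26.7 and 26.7 FPKM, and spread across WT, at 31.2, 15.1, 18.6 and 20.0 FPKM in WT 55, 62, 64 and 65 (log2 change 0.37, limma adjusted p = 0.157; 0.18 after rescaling). The Pxmp4 to Pxmp2 ratio was 1.23 ± 0.0111 in PATKO and 1.28 ± 0.306 in WT (SD, n = 4 each; exact permutation p = 0.686).

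Leaving out single libraries ended most of these calls. The calls over all tested genes fell too, from 1646 to between 24 and 1468 over the 8 omissions. Pex10 and Pxmp4 passed when PATKO 57 or WT 55 was left out and not otherwise (highest limma adjusted p 0.0695 and 0.0781). Gnpat passed only without WT 55 (highest limma adjusted p 0.0826), and Eci2 passed in none of the 8 fits (0.0577 to 0.0985). The summed FPKM of the muscle markers did not overlap between the groups. With the mean log2(FPKM + 0.5) of these markers as a covariate, 0 of the 40 genes passed, and 2 of all 12235 tested genes. The log2 changes were then 0.83 for Acaa1b, 0.45 for Pex10, 0.39 for Gnpat, 0.33 for Pxmp4 and 0.20 for Eci2. Muscle marker level and genotype cannot be told apart here.

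Other genes of the organelle included matrix enzymes and membrane tethers. Of 27 tested genes for other peroxisomal proteins 5 rose with FPKM as deposited (18.5%, against 13.2% of all tested genes), 0 fell, and 0 passed after rescaling, where 15 lay above 0 and 12 below. Crat, the carnitine acetyltransferase shared with mitochondria, was 186.8 ± 3.92 FPKM in PATKO and 128.9 ± 9.58 FPKM in WT (log2 change 0.54, SE 0.07, limma adjusted p = 0.00922; SD, n = 4 each). Its change after rescaling was 0.34 (limma adjusted p = 0.130). The others were Mlycd, the malonyl-CoA decarboxylase (log2 change 0.39), Hsdl2 (0.35), Tmem135 (0.26) and the acyl-CoA-binding tether Acbd5 (0.25). Of 3 tested fission factors that peroxisomes share with mitochondria limma called 0 with either scaling. At an unadjusted p under 0.05, 1 was higher as deposited, Fis1 (log2 change 0.19, limma adjusted p = 0.0581), and 0 after rescaling. That is 33.3% as deposited, against 34.6% of all tested genes, and 0% against 9.1% after rescaling.

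Of 7 PPAR receptors and partners 1 rose with FPKM as deposited, Rxra (14.3%, against 13.2% of all tested genes called higher), and 0 passed after rescaling. Rxra, the obligate dimer partner of the PPARs, was 14.1 ± 1.71 FPKM in PATKO and 10.7 ± 1.09 FPKM in WT (log2 change 0.38, limma adjusted p = 0.0415; 0.19 after rescaling, limma adjusted p = 0.265). Ppara was 98.7 ± 11.9 FPKM in PATKO and 81.2 ± 9.5 FPKM in WT (SD, n = 4 each; log2 change 0.28, limma adjusted p = 0.1; 0.08 after rescaling). Of 18 genes of mitochondrial β-oxidation, limma called 0 with either scaling. At an unadjusted p under 0.05, 2 were higher and 1 lower as deposited, against 34.6% and 1.39% of all tested genes. After rescaling 0 were higher and 1 lower, against 9.1% and 8.21% of all genes. The median log2 change of the 18 was 0.09, and -0.11 after rescaling, beside -0.02 for the 23 peroxisomal enzymes. After rescaling 2 of the 18 lay above 0 and 16 below (11.1% above, against 48.9% of all tested genes).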

How the data were processed

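Brown adipose tissue of 4 PATKO and 4 WT samples was profiled by poly(A) RNA-seq. Per the file headers, the authors deposited FPKM for 24535 gene symbols in each library, with group means and an adjusted p-value whose test is not stated. The genome build was mm10, per the submitters' processing notes; the aligner, the counter and the annotation were not given in the sources used here. FPKM are not counts, so limma 3.58.1 in R 4.3.3 (lmFit, eBayes with trend, two-sided) was run on log2(FPKM + 0.5) for 12235 genes averaging 0.5 FPKM or more over the 8 libraries, with Benjamini-Hochberg adjustment over all of them and a threshold of 0.05; 39 of the 40 genes were tested. Values of 3 peroxins and of 1 of the 8 ratios are not reported here, though the counts and sums include them. The added 0.5 shrinks the log2 change of genes with low FPKM. Rescaling divided FPKM by median-of-ratios factors. Other scalings, pseudocounts, filters, limma settings, a muscle covariate and the omission of each library were tried. Known fold changes placed in simulated data were used to check the fit.

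Ratios used an exact permutation test over 70 assignments. The printed ratios are of FPKM as deposited, while the tested log2 ratios had 0.5 added to each FPKM. The tested log2 differences therefore depend in part on library scaling, most for genes with low FPKM. Values in every library are given for genes past the threshold, genes separated after rescaling, the 4 peroxins and 6 enzymes with the highest mean, and pairs with a ratio p under 0.05. Acaa1a, Acox2, Ehhadh and Pxmp2 were added after their values were seen. Of each other list up to 4 genes with the smallest adjusted p are named, and Tmem135 was added as the remaining called gene. The gene set, lists and tests were chosen with earlier results of these data known. Positions and sequence overlaps came from GENCODE M21 (GRCm38) and promoters from RefSeq, with Python 3.11.15 and Biopython 1.88.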

Additional observations from a re-analysis of the deposited data

Results flagged for a closer look

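Among the 80 sets of 4 libraries (40 genes in each group), 1 had a library far from the other 3, with a gap of 0.877 of the group's range. Abcd2 was 25.263 FPKM in WT 64, against 14.831, 16.110 and 15.557 FPKM in WT 55, 62 and 65. Chance gives such a gap in about 1 of 20 sets. Ucp1, 1 of the 10 listed brown adipocyte markers, was also highest in WT 64 of all libraries, at 1305 FPKM. Elovl3, of the same list, went the other way, with WT 64 the lowest of the WT libraries at 1.42 FPKM.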

How the results depend on the processing

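No paired analysis was possible because the numbers in the titles are not shared between the groups. The scaling decided the counts of called genes. Of all genes, the 17 peroxins and the 23 enzymes, limma called 15, 0 and 0 after rescaling, 28, 0 and 0 with a common FPKM total, 18, 0 and 0 with quantile normalization, 2, 0 and 0 with the muscle covariate, and 2, 0 and 0 with rescaling and the covariate together, a combination chosen after seeing the data. Without the low-value filter it called 713, 1 and 3, with a minimum mean of 5 FPKM 1632, 3 and 5 (Acaa1b was then not tested, and Pex3, Amacr and Hacl1 were added), and without the variance trend 992, 1 and 2. A pseudocount of 1 or 0.1 and a robust fit gave 2 peroxins and 4 enzymes. With single libraries left out, the counts were 24 to 1468 of all genes, 0 to 3 peroxins and 0 to 4 enzymes as deposited, and 3 to 57, 0 and 0 after rescaling; leaving out PATKO 53 or WT 64 gave 24.

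Directions turned for values that did not pass or that lie near the median gene. Only the genes that the rule chose for values in every library were followed through all settings. After rescaling, Acot8 was -0.12, Hsd17b4 -0.07, Pex2 -0.10 and Scp2 -0.05. Other members turned after rescaling too, among them Acaa1a (0.08 to -0.11) and Acox3 (0.12 to -0.07). With a common total, Acot8 was -0.04 and Pex2 -0.00. With quantile normalization, Acot8 was -0.15, Hsd17b4 -0.01, Pex2 -0.09 and Scp2 -0.01. With the muscle covariate, Abcd2 was 0.09 and Phyh 0.07. With rescaling and the covariate, Abcd3 was -0.08, Eci2 -0.01, Pex2 -0.16 and Pex6 -0.11. Over all omissions of 1 library with either scaling, the log2 changes were -0.03 to 0.33 for Abcd3, -0.19 to 0.15 for Acot8, -0.02 to 0.23 for Eci2, -0.11 to 0.18 for Hsd17b4, -0.01 to 0.28 for Pex16, -0.04 to 0.25 for Pex19, -0.14 to 0.13 for Pex2, -0.06 to 0.27 for Pex6 and -0.09 to 0.17 for Scp2. The log2 difference of the Pxmp4 to Pxmp2 ratio was -0.16 to 0.12. The causes were not tested, and depth is unknown.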

Other observations

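Acox2 and Elovl3, an elongase of very-long-chain fatty acids, had the same order among the WT libraries at the top. Elovl3 was 1.31, 1.15, 0.888 and 1.06 FPKM in PATKO 53, 57, 70 and 71, and 1.71, 14.7, 1.42 and 4.78 FPKM in WT 55, 62, 64 and 65. WT 62 and then WT 65 were highest for both genes. Elovl3 was chosen after its values were seen, and its difference did not pass (limma adjusted p = 0.0981).

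Of the 30 genes with a RefSeq promoter, the 5 with the fewest CpG dinucleotides in the 250 bases before the start were Acaa1b and Acox2 with 2 each, Pex26 with 6, and Acot4 and Pxmp4 with 7 each, beside a median of 13 for the 11 peroxins, 12 for the 19 enzymes and 6 for all 27025 genes. Pex10, Gnpat and Eci2, also called higher as deposited, had 20, 24 and 12. These counts were picked out after the values were seen, and a link to the changes was not tested.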
